A study of Mus musculus with 6 samples.

Results

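The EGF receptor family was described through 10 genes in the RNA-seq of primary mouse cortical astrocytes: the receptors Egfr, Erbb2 and Erbb3, the ligands Hbegf, Areg, Ereg, Tgfa, Btc and Nrg1, and the receptor inhibitor Errfi1. They were chosen by gene symbol from the 55357 genes of the authors' table. All 10 were found, and all 10 passed the filter on low values, a mean of at least 10 normalized counts over the 6 cultures. A further identifier that carries the symbol Nrg1 (ENSMUSG00000118541) was at 0 in every culture and was set aside.

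The cultures came from the cortex of C57BL/6 embryos. In 3 cultures (KE) a plasmid had been transfected from which the CMV promoter drives FLAG-tagged BRAF K499E, a constitutively active form of the kinase BRAF found in RASopathies, and RNA was taken 48 hours later. The comparison group was 3 cultures labelled naive and non-transfected (NT), although the treatment text of their labels repeats that of the KE cultures. Neither an empty plasmid nor BRAF WT was analysed here, so an effect of BRAF KE and an effect of transfection cannot be told apart in any difference below. According to the study's culture methods the astrocyte medium contains HB-EGF, the protein encoded by Hbegf, so ligand was supplied to the cells besides what they made.

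EGF-like ligands are made as membrane-anchored precursors, are cut free by ADAM metalloproteases, and bind receptor tyrosine kinases of the ErbB family, which pair up and signal through RAS, RAF, MEK and ERK. EGFR binds the products of Egf, Tgfa, Areg, Epgn, Hbegf, Btc and Ereg, the last 3 of which also bind ERBB4. The product of Nrg1 binds ERBB3 and ERBB4. ERBB2 has no known ligand and acts as the partner of the others, and ERBB3 has very weak kinase activity of its own. Several ligands and the inhibitor Errfi1 are themselves transcribed in response to ERK, and in the brain EGFR is a receptor of progenitors and of immature and reactive astrocytes.

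Of the 10 genes, 5 were upregulated in BRAF KE–transfected astrocytes (Areg, Ereg, Btc, Errfi1 and Nrg1), 1 was downregulated (Egfr), and Erbb2, Erbb3, Hbegf and Tgfa did not pass the test, which was limma with an adjusted p-value under 0.05. Over all 15280 tested genes 25.3% were upregulated and 26.0% downregulated by the same rule, 51.3% in all, so the number of members called is to be read against that. Areg, which is among the 5, passed the filter on low values only through its KE values. The changes were of very different size. Areg, Ereg and Btc were 11.8, 4.79 and 3.90 times as high in KE as in NT by the ratio of group means, whereas no other member differed by more than 1.32 times in either direction except Egfr, at 0.725 of its NT mean. The median log2FC of the 10 was 0.33, against 0.00183 over all tested genes. The groups did not overlap in 6 of the 10, with KE above NT in 5 and below in 1. Over all tested genes this held for 59.9%, with KE above in 30.1% and below in 29.9%.

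**Figure D1:**
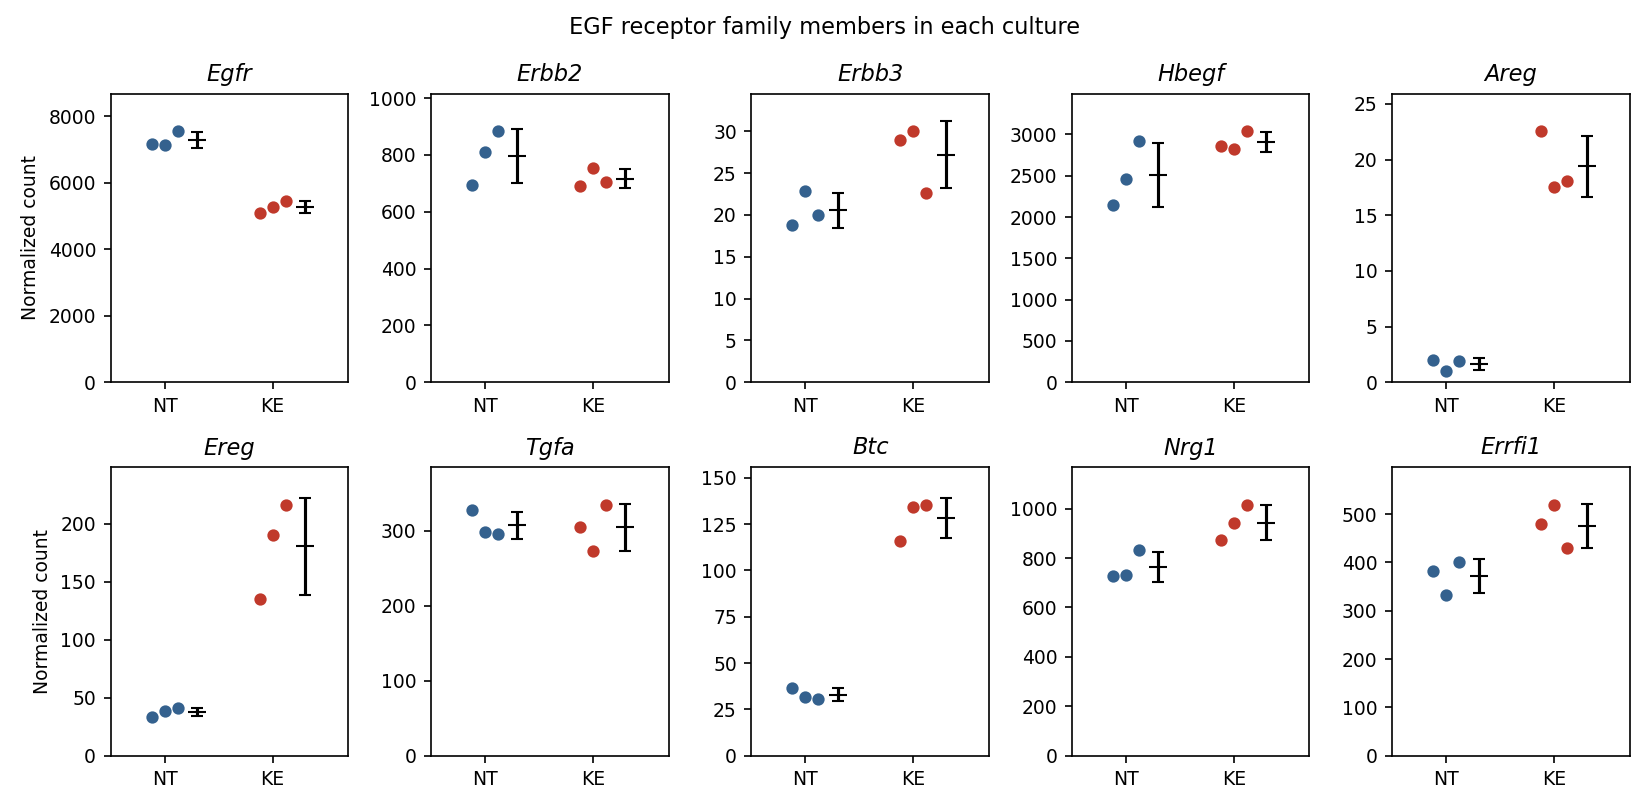
Normalized count of each member in the 3 NT and 3 KE cultures, on linear axes that start at 0 and differ between panels; points are cultures, and the black mark and bar give the mean and SD of 3. Areg, Ereg and Btc stand far apart between the groups, Egfr is lower in every KE culture, and Erbb2, Erbb3, Hbegf and Tgfa overlap.

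**Figure D2:**
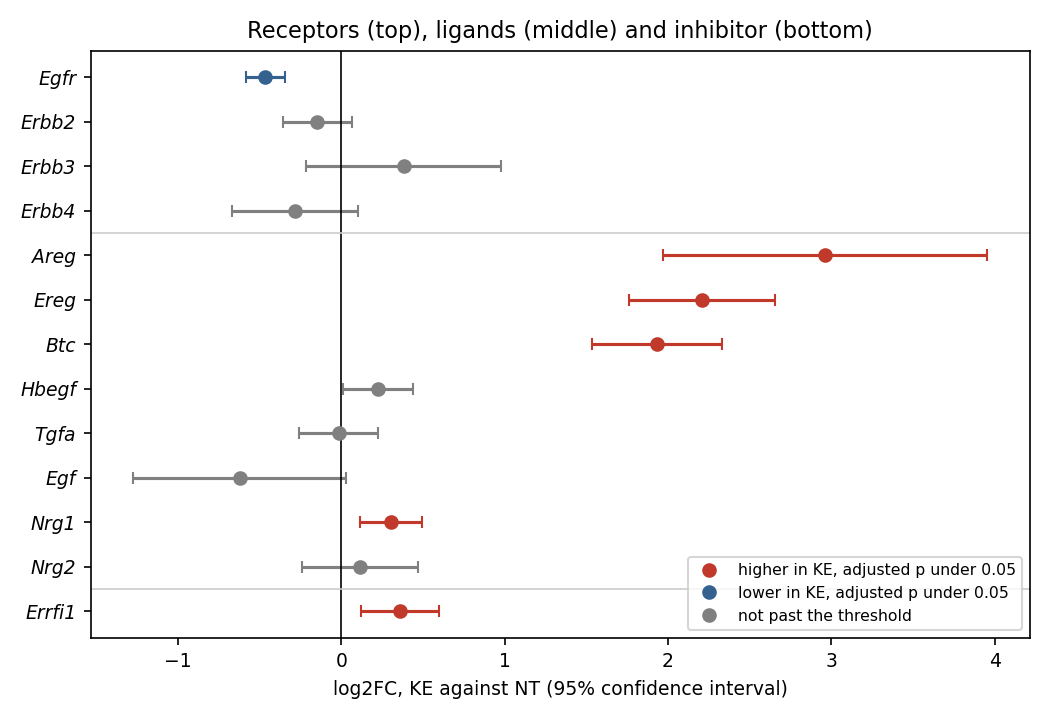
The log2FC of the 10 members and of the 3 other family genes that could be tested (Erbb4, Egf and Nrg2), with limma's 95% confidence interval. The intervals of Areg, Ereg and Btc begin at 1.97, 1.76 and 1.53, above the upper ends of all the others.

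The promoters of the upregulated genes are shown first, since Areg and Errfi1 share sequence features there that Btc lacks. Windows were taken from RefSeq's promoter table on GRCm38.p6 for 6 of the 10 members (Egfr, Erbb2, Areg, Tgfa, Btc and Errfi1, the last with 2 starts). The other members, Hbegf among them, were not searched. The 250 bases before each start were searched on both strands for the cAMP response element (CRE, TGACGTCA), the AP-1 site (TGANTCA), an ETS site (CCGGAAGT), the GC box (GGGCGG) and the TATA box (TATAAA). The windows printed 5′ to 3′ are chr5:91139349-91139598 for Areg (plus strand), chr4:150854820-150855069 for the downstream start of Errfi1 (plus strand) and chr5:91402995-91403244 for Btc (minus strand). Capitals mark the motif matches.
Areg: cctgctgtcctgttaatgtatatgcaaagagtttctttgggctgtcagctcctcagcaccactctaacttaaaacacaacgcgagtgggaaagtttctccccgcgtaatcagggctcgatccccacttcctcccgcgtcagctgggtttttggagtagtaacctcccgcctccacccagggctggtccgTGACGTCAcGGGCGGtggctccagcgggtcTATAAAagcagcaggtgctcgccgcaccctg
Errfi1: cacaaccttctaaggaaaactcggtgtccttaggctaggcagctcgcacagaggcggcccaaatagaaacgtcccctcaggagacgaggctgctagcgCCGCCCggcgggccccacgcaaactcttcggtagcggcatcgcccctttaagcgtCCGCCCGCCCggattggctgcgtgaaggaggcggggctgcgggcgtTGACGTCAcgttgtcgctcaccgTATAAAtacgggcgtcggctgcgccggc
Btc: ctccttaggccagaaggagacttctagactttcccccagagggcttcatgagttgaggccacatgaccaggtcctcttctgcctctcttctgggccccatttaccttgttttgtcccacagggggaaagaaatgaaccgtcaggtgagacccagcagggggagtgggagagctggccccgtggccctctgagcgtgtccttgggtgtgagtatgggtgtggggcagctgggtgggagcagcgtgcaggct
The Areg window contained a CRE that begins 61 bases before the start, a GC box at 52 and a TATA box at 31. That of Errfi1 contained a CRE at 51, a TATA box at 28 and 3 GC boxes, of which those at 97 and 93 overlap. Of the 32851 promoter windows of this length in the table, 1.55% contained the CRE, 12.4% the TATA box and 32.7% the GC box. None of the searched letters were found in the Btc window or in that of the other Errfi1 start. The AP-1 and ETS letters, found in 6.75% and 2.88% of all windows, were in none of the member windows, and outside Areg and Errfi1 only the GC box was found, at 9 bases in Egfr and at 126 and 15 bases in Tgfa. These matches describe the letters and do not show that a factor binds.

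Egfr (ENSMUSG00000020122; GRCm39 chromosome 11, plus strand, from 16702198 to 16868158) was the most abundant receptor and the only downregulated member. It was 5099, 5275 and 5451 normalized counts in KE replicates 1, 2 and 3 and 7155, 7140 and 7547 in the NT replicates. Every KE culture was below every NT culture, by more than the spread within either group. KE averaged 5275 ± 176 and NT 7281 ± 231 (SD, n = 3 per group). The log2FC was -0.46 with a standard error of 0.05 (limma, adjusted p = 3.5e-05).

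Erbb2 (ENSMUSG00000062312; plus strand of chromosome 11, from 98303203 to 98328542), the partner receptor, was 689, 754 and 705 in KE and 694, 810 and 884 in NT. The ranges overlapped and the log2FC was -0.15 (95% confidence interval -0.36 to 0.06, adjusted p = 0.23 from limma). It was -0.24 without NT replicate 1 and -0.07 without NT replicate 3 (adjusted p = 0.0504 and 0.61 from limma). Erbb3 (ENSMUSG00000018166; minus strand of chromosome 10, from 128403392 to 128425811), a receptor for neuregulins, was barely transcribed, with 28.9, 30.0 and 22.6 normalized counts in KE and 18.8, 22.8 and 20.0 in NT. These values were whole reads to within 0.1 of a read, 81 in the KE cultures together and 62 in the NT cultures. The log2FC of 0.38 had a confidence interval from -0.21 to 0.98 and did not pass the test (adjusted p = 0.26 from limma). Erbb3 is known from the oligodendrocyte lineage. Of 12 markers of that lineage 11 were tested, 8 of them were downregulated and 1, Cnp, was upregulated (log2FC 0.38). Their summed level was 29976 to 35057 in KE and 38454 to 38658 in NT, with Mog below 1 normalized count in both group means. Most of that sum was Olig1, which averaged 20749 in KE and 23693 in NT. Pdgfra, a marker of oligodendrocyte progenitors, had a log2FC of -0.87. Sox10, a transcription factor of the lineage, had one of -0.50, which was -0.32 without KE replicate 1. The Sox10 call was lost without KE replicate 1, KE replicate 3, NT replicate 1 or NT replicate 2 (adjusted p 0.0566 to 0.114 from limma). It was also lost with no variance trend (adjusted p = 0.086 from limma). The part of these cells in the level of Erbb3 was not tested.

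Areg, Ereg and Btc are ligands of EGFR and were the members that rose most. Ereg (ENSMUSG00000029377; plus strand of chromosome 5, from 91222157 to 91241505), which encodes epiregulin, was 135, 190 and 216 in KE and 33.6, 38.3 and 41.0 in NT. All KE cultures were above all NT cultures, and KE replicate 1 was the lowest of the 3. KE averaged 180 ± 41.7 and NT 37.7 ± 3.72 (SD, n = 3 per group). This is a log2FC of 2.21 with a standard error of 0.20 (limma, adjusted p = 5.8e-06). Only 154 of the 15280 tested genes, Ereg included, had a log2FC at least as high.

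Btc (ENSMUSG00000082361; minus strand of chromosome 5, from 91505120 to 91550883), which encodes betacellulin, was 116, 134 and 136 in KE and 36.8, 31.4 and 30.7 in NT. The groups lay far apart and the spread was small in both. KE averaged 129 ± 10.8 and NT 33.0 ± 3.32 (SD, n = 3 per group), and the log2FC of 1.93 had a standard error of 0.18 (limma, adjusted p = 6.6e-06).

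Areg (ENSMUSG00000029378; plus strand of chromosome 5, from 91287451 to 91296291), which encodes amphiregulin, was the lowest of the 3, with 22.6, 17.5 and 18.1 normalized counts in KE and 1.98, 1.03 and 1.91 in NT. In whole reads, to within 0.1 of a read, this was 25, 14 and 20 reads in KE and 2, 1 and 2 reads in NT. With depth taken into account the ratio of the pooled reads was 11.9 (95% exact interval 4.81 to 37.9, counting error only). The log2FC was 2.96 with a standard error of 0.45 (limma, adjusted p = 2.5e-04). The size of that log2FC depended on the number added before taking logs, at 3.24 with 0.5 and 1.87 with 5. Areg passed the mean filter only through its KE values.

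These 3 ligand genes are neighbours. Ereg, Areg and Btc lie within 328.7 kb on chromosome 5, with Epgn, the gene of the EGFR ligand epigen, just before Ereg, and the 4 together span 375.6 kb. Epgn was at or near 0 in both groups, with 3.61, 0 and 3.62 normalized counts in KE and 7.92, 6.21 and 1.91 in NT, which is 8 reads against 16. It was too low to be tested, and the ratio of pooled reads was 0.503 with an exact interval from 0.186 to 1.25 (counting error only).

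**Figure D3:**
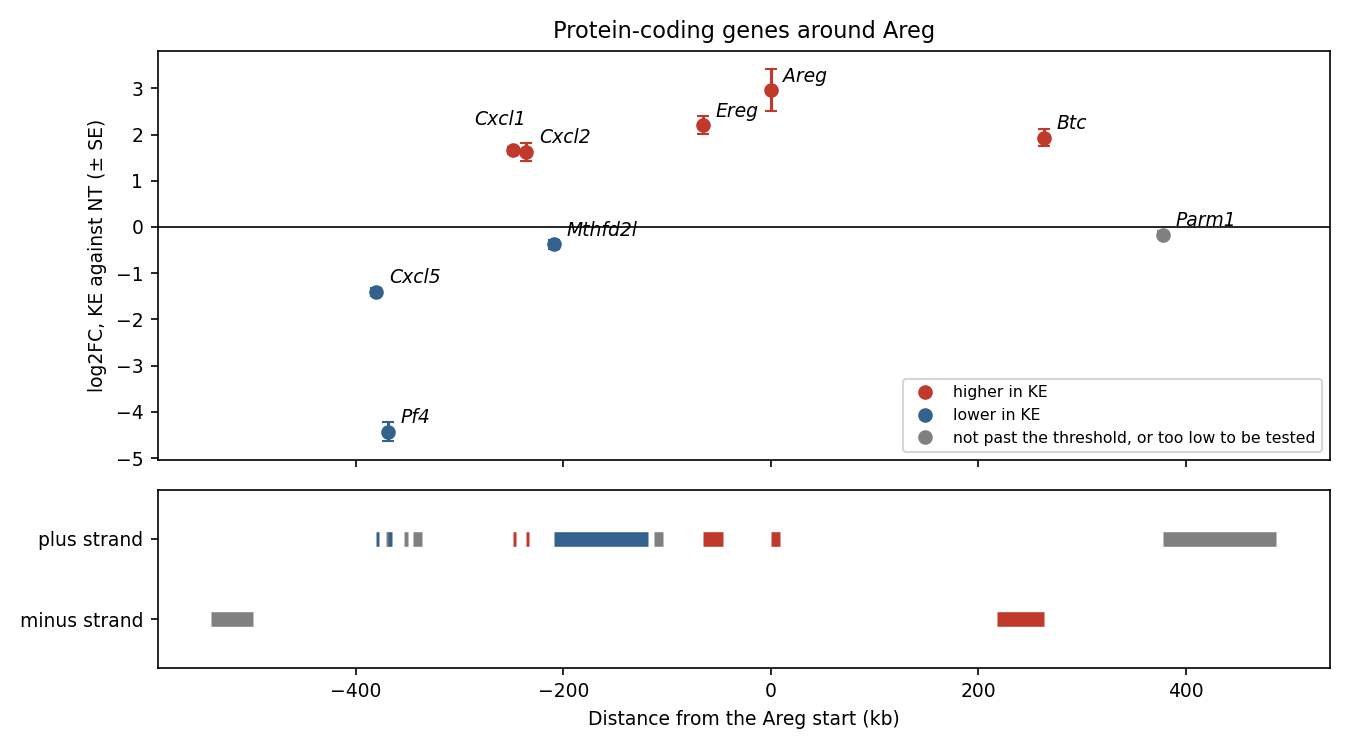
Protein-coding genes of the authors' table within 500 kb of the Areg start on GRCm39: the upper plot gives log2FC with its standard error at each gene's start, for the genes tested, and the lower plot the extent of each gene on its strand. Ereg, Areg and Btc rose, while Mthfd2l and Parm1, the nearest tested genes on either side, had log2FC of -0.38 and -0.16. Beyond Mthfd2l, Cxcl1 and Cxcl2 rose as well, and Pf4 and Cxcl5 fell.

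Within 500 kb of the Areg start the authors' table contained 23 genes, of which 9 were tested, with 5 upregulated and 3 downregulated. Over all tested genes 25.3% were upregulated and 26.0% downregulated, so the calls in this region are to be read against that. The window was placed on Areg, and the 5 include the 3 ligand genes themselves. The count is therefore not independent of the members. Besides the 3 ligands, the neutrophil chemokine genes Cxcl1 and Cxcl2 were upregulated, with log2FC of 1.66 and 1.63. The chemokine genes Pf4 and Cxcl5 on the far side of Cxcl1 were downregulated, with log2FC of -4.43 and -1.40. Mthfd2l, a mitochondrial folate enzyme gene that lies between Cxcl2 and Epgn, fell by 0.38 on the log2 scale (adjusted p = 0.0096 from limma), and Parm1, the next protein-coding gene after Btc, did not pass the test (adjusted p = 0.13 from limma). The region thus contained genes of both directions, and the 3 ligand genes had no tested gene between them. Macrophages and platelets are the textbook source of Pf4, and all 15 markers of microglia fixed for this work were downregulated in KE, with a median log2FC of -3.31. Their summed level was 5575 to 7705 normalized counts in KE and 45219 to 53227 in NT, and none was at 0. Cx3cr1 and C1qa had log2FC of -3.97 and -3.12. In bulk RNA fewer cells of a type and less RNA per cell cannot be told apart, and the part of microglia in the values of the ligands was not tested.

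Hbegf (ENSMUSG00000024486), the gene of the ligand that the medium also supplied, was the most abundant ligand. It was 2863, 2818 and 3040 in KE and 2141, 2459 and 2916 in NT. NT replicate 3 was within the KE range, and NT varied more than KE, with SDs of 389.5 and 117. The log2FC was 0.23 (95% confidence interval 0.01 to 0.44) and did not pass the threshold (adjusted p = 0.072 from limma). Without NT replicate 3 it was 0.34 and passed (adjusted p = 0.0047 from limma), and without NT replicate 1 it was 0.12 (adjusted p = 0.28 from limma). With all 6 cultures and the replicate number as a block, it passed as well (log2FC 0.23, adjusted p = 0.030 from limma), although the numbers are not known to pair the cultures.

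Tgfa (ENSMUSG00000029999; plus strand of chromosome 6, from 86172041 to 86252728), which encodes TGF-alpha, was 306, 273 and 335 in KE and 328, 298 and 296 in NT. The groups overlapped fully and the log2FC was -0.02, with a confidence interval from -0.26 to 0.23 (adjusted p = 0.91 from limma). A change of Tgfa as large as that of Ereg or Btc lies outside this interval.

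Nrg1 (ENSMUSG00000062991; minus strand of chromosome 8, from 32303906 to 33374825), which encodes the neuregulin 1 isoforms, was 873, 942 and 1016 in KE and 726, 732 and 833 in NT. The lowest KE culture was above the highest NT culture by a small margin. The log2FC was 0.31 with a standard error of 0.09 (limma, adjusted p = 0.012), and it was 0.25 without KE replicate 3, where the call was lost (adjusted p = 0.053 from limma). Isoforms of Nrg1 are summed in this value.

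Errfi1 (ENSMUSG00000028967; plus strand of chromosome 4, from 150938376 to 150955402) encodes MIG6, which binds the EGFR kinase domain and blocks it. It was 480, 520 and 429 in KE and 381.5, 332.5 and 401 in NT. The groups did not overlap, and the log2FC was 0.36 with a standard error of 0.11 (limma, adjusted p = 0.017). The call was lost without KE replicate 1, KE replicate 2 or NT replicate 2, where log2FC was 0.35, 0.29 and 0.28 (adjusted p = 0.053, 0.065 and 0.067 from limma). Errfi1 was thus higher in every KE culture, but its call rested on single cultures.

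The family genes outside the 10 were Erbb4, Egf, Epgn, Nrg2, Nrg3 and Nrg4, and none of the 3 that could be tested was called. Erbb4, the fourth receptor, averaged 92.0 ± 19.0 in KE and 111 ± 1.46 in NT (SD, n = 3 per group), with a log2FC of -0.28 (adjusted p = 0.20 from limma). It was -0.44 without KE replicate 1, -0.16 without KE replicate 3 and -0.15 with quantile normalization (adjusted p = 0.066, 0.50 and 0.51 from limma). Egf was 18.2, 15.9 and 30.2 in KE and 31.8, 33.0 and 32.1 in NT. All KE values of Egf lay below the NT values, yet its log2FC of -0.62 did not pass the test (adjusted p = 0.10 from limma), and without KE replicate 3 it was -0.89 and did (adjusted p = 0.032 from limma). Nrg2 had a log2FC of 0.11 (confidence interval -0.24 to 0.47), which turned to -0.01 without KE replicate 3 and to -0.05 without NT replicate 2. The means of Nrg3 and Nrg4 were under 6 normalized counts in both groups and were not tested.

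Levels were compared between genes per kb of exon. The length was the union of all annotated exons, or the canonical transcript where that is named. Among receptors, the NT level was 630 ± 20.0 normalized counts per kb for Egfr, 147 ± 17.6 for Erbb2, 8.69 ± 0.11 for Erbb4 and 3.26 ± 0.32 for Erbb3 (SD, n = 3), and these 4 did not overlap. In KE the order was the same, with 457 ± 15.3 for Egfr and 132 ± 6.21 for Erbb2. Egfr thus made up 79.9% ± 1.45 of the summed receptor level per kb in NT and 76.1% ± 0.999 in KE, and Erbb2 18.6% ± 1.50 and 22.0% ± 0.827 (SD, n = 3).

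**Figure D4:**
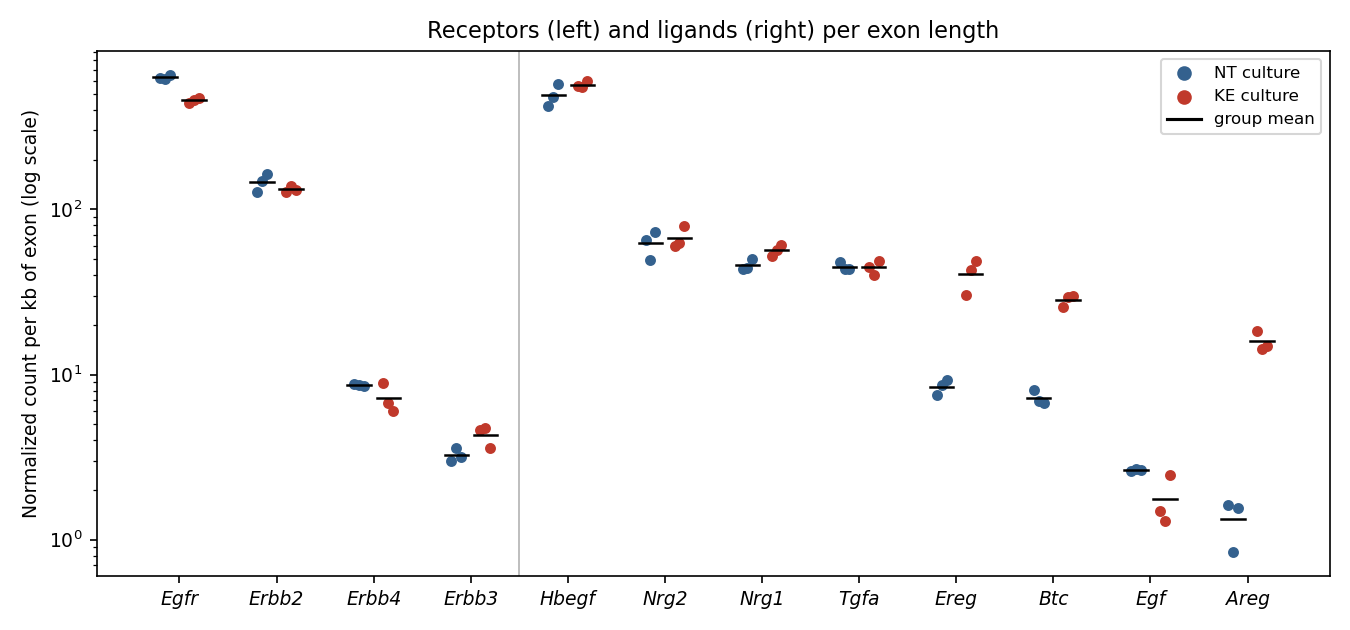
Normalized count per kb of exon in each culture, on a log axis, for the 4 receptors and for the 8 ligands that passed the mean filter; the black line is the mean of 3 cultures. Hbegf lies above all other ligands in both groups, while Ereg, Btc and Areg lie nearer to Tgfa in KE than in NT.

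Among ligands, Hbegf led in NT with 490 ± 76.2 normalized counts per kb, followed by Nrg2 (62.6 ± 12.4), Nrg1 (45.8 ± 3.60) and Tgfa (44.9 ± 2.59), whose ranges overlapped from each to the next after Hbegf (SD, n = 3). Ereg (8.46 ± 0.835) and Btc (7.25 ± 0.730) came next and also overlapped. Below them were Epgn (2.96 ± 1.71), Egf (2.64 ± 0.0502) and Areg (1.34 ± 0.433), and the range of Epgn overlapped those of both others. In KE, Ereg was at 40.5 ± 9.37 per kb and its range of 30.3 to 48.6 overlapped that of Tgfa, 39.9 to 49.0. Btc was at 28.3 ± 2.38 and Areg at 15.9 ± 2.26 in KE. Together, Areg, Ereg and Btc made up 2.88%, 2.55% and 2.31% of the summed ligand level per kb in NT, and 9.34%, 10.8% and 10.6% of it in KE. With the length of the canonical transcript in place of all exons these shares were 1.34% to 1.75% in NT and 5.49% to 6.37% in KE. Several of the overlaps above held only for the exon union. Per kb of the canonical transcript, Nrg1 in NT was at 105 to 121 and Tgfa at 62.7 to 69.5, with no overlap. In KE, Tgfa was at 57.9 to 71.0 by that length, above the 30.3 to 48.6 of Ereg. Btc was then at 10.6 to 12.7 in NT, above the 7.56 to 9.21 of Ereg, and at 40.0 to 46.6 in KE, within its range. Egf lay above the range of Epgn in NT, at 5.58 to 5.79 against 1.09 to 4.50. Hbegf, the largest share by either length, was 69.0% ± 1.50 in KE and 73.3% ± 3.08 in NT (SD, n = 3). These levels are of transcripts and do not count the HB-EGF of the medium.

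The other genes of the pathway were taken as lists by role: 8 genes that process ligands, 17 adaptors and effectors, and 16 genes of receptor trafficking and negative regulation. With the 6 further family genes this made 47, of which 44 were tested, 10 were upregulated and 10 downregulated, with a median log2FC of -0.02. Those shares are close to the 25.3% and 26.0% of all tested genes. Without KE replicate 1 or NT replicate 2 the upregulated number was 6.

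**Figure D5:**
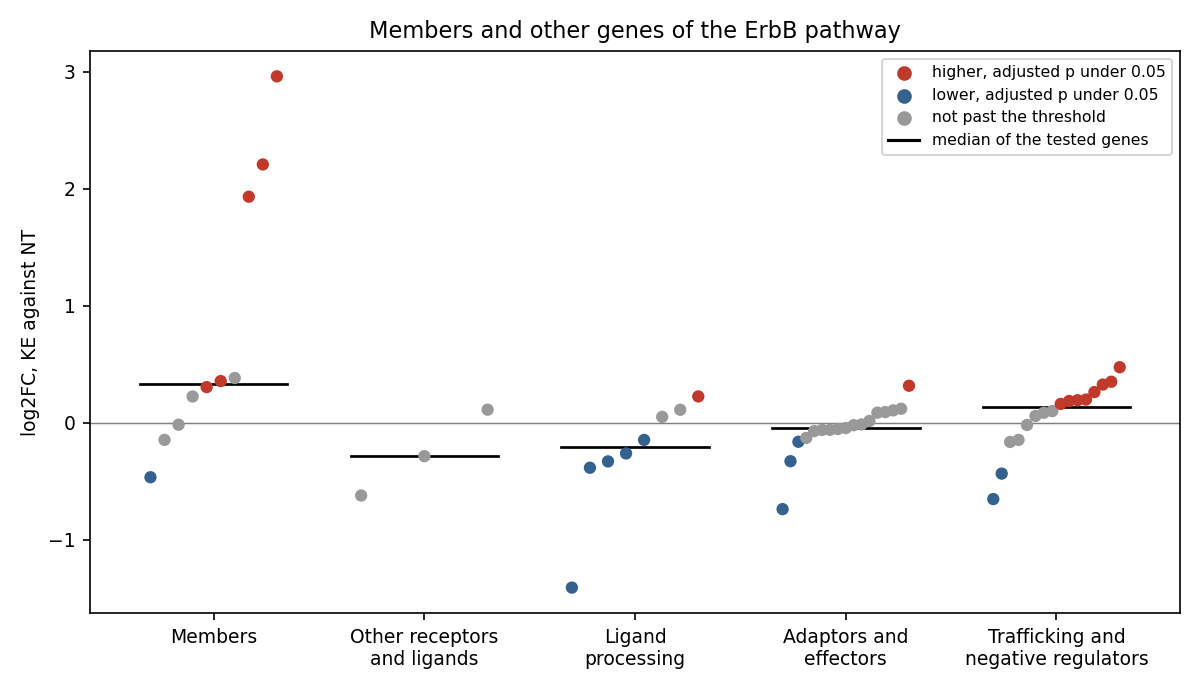
The log2FC of each tested gene among the members and the 4 lists of other ErbB pathway genes, sorted within each list, with the median as a black line. No gene outside the members rose by more than 0.48 on the log2 scale, and Adam19 fell furthest, with -1.41.

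Of the genes that process ligands, 5 of 8 were downregulated and 1 upregulated, where 26.0% and 25.3% of all tested genes were. The median log2FC of the list was -0.20. Adam19 and Adam9, membrane metalloproteases, had log2FC of -1.41 and -0.38 (adjusted p = 6.8e-08 and 2.0e-04 from limma). Adam10 and Adam17, the main sheddases of EGFR ligands, were picked out for that role after their values had been seen. Adam10 had a log2FC of -0.33 (adjusted p = 0.0011 from limma) and Adam17 one of -0.15 (adjusted p = 0.038 from limma). The call for Adam17 was lost without KE replicate 1, KE replicate 2, NT replicate 1 or NT replicate 2 (adjusted p 0.0842 to 0.101 from limma), and with no filter on low genes or no variance trend. Rhbdf1, an inactive rhomboid that takes part in the maturation of ADAM17, was the upregulated gene (log2FC 0.23, adjusted p = 0.027 from limma), and its call was lost without KE replicate 2, NT replicate 1 or NT replicate 2 (adjusted p 0.0509 to 0.0998 from limma), and with no variance trend (adjusted p = 0.079 from limma).

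Among the 17 adaptors and effectors 1 was upregulated, 3 were downregulated and 13 did not pass the test. Of all tested genes 25.3% were upregulated and 26.0% downregulated. The upregulated gene was the adaptor Nck2 (log2FC 0.32). The largest falls were those of Eps8, an EGFR substrate that acts on actin (log2FC -0.74), and Pik3cb, a catalytic subunit of PI3K (-0.33).

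Of the 16 trafficking and negative regulator genes 8 were upregulated and 2 downregulated, against 25.3% and 26.0% of all tested genes. The median log2FC of the list was 0.13. The number upregulated was 4 without KE replicate 1 and 5 without KE replicate 3, NT replicate 2 or NT replicate 3. Hgs and Stam, whose products sort ubiquitinated receptors at endosomes, had log2FC of 0.48 and 0.35 (adjusted p = 3.3e-04 and 9.4e-04 from limma). Lrig1, which encodes a membrane protein that restrains ErbB receptors and was singled out after its values had been seen, rose from 14334 to 17994 normalized counts (log2FC 0.33, adjusted p = 5.6e-04 from limma). Cbl, the ubiquitin ligase of activated EGFR, and Sh3kbp1, its adaptor, were downregulated, with log2FC of -0.43 and -0.65 (adjusted p = 5.3e-04 and 0.0010 from limma). The list therefore held calls in both directions. The microglial markers that fell in KE are given above, and their part in the falls of Adam19, Eps8, Cbl and Sh3kbp1 was not tested.

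Several measurements bear on all of these values. Braf, the transfected gene, was 41.4 times as high in KE as in NT. The approximate depth was 24490000 to 34146000 reads, lowest in KE replicate 2. Of 10 astrocyte markers 7 were upregulated and 1, Gja1, was downregulated. Their summed level was 194520 to 200350 in KE and 142100 to 150690 in NT, with Gfap at a log2FC of 0.87 and Aqp4 at 0.02. Of 10 neuronal markers 8 were tested, with 2 upregulated and 2 downregulated (summed level 6904 to 7378 in KE, 8898 to 9612 in NT). Most of that sum was Map2, which averaged 4965 in KE and 7077 in NT. Nefl and Tubb3 were the upregulated ones, with log2FC of 1.73 and 0.43. Of 8 fibroblast and mural markers 3 were upregulated and 3 downregulated (3118 to 3251 in KE, 3602 to 4708 in NT). Acta2, the most abundant of them in both groups, averaged 651 in KE and 1694 in NT, while Col1a2, Lum and Rgs5 were upregulated. Of 6 endothelial markers 3 were tested and 2 downregulated (237 to 302 in KE, 337 to 496 in NT), and Cldn5 was at 0 in every KE culture and in all but 1 NT culture. Most of the endothelial sum was Flt1, which averaged 217 in KE and 337 in NT. A summed level therefore follows its most abundant genes. The part of these cells in the family's levels was not tested.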

How the data were processed

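RNA-seq libraries (TruSeq stranded mRNA) of 3 KE and 3 NT astrocyte cultures were analysed. Groups and replicate numbers came from the sample titles. Nothing in the labels says that the cultures came from separate preparations, so p-values measure the spread between these samples, which may be technical. The authors deposited a normalized signal for each gene, which is a Salmon count scaled by a DESeq2 size factor, after Trim Galore and STAR. The methods name GRCm39 with Gencode for mouse, whereas the submitters' processing notes name GRCh38, which mouse gene identifiers go against. The methods mention batches without naming them, so none was modelled. Total signal was 30472000 to 30896000 in every culture and does not give depth. Depth was taken as the total divided by the most frequent low value. At most 76.5% of low values were whole to within 0.1 of a read, so no p-value was taken from reads. The values of Areg and Epgn were whole by that measure. For these an exact binomial interval of the reads pooled over each group was given, which leaves out the spread between cultures.

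Signals plus 1 were log2-transformed and compared with limma 3.58.1 in R 4.3.3 (group only, variance trend, two-sided) in the 15280 genes whose mean reached 10. Adjustment followed Benjamini-Hochberg across every tested gene, and a gene was called below 0.05. A log2FC on this scale understates changes of low genes. The smallest two-sided p of an exact permutation test of 3 against 3 is 0.1. The fit was tested on simulated data, in which 200 of 15280 genes changed. It called 82% of changes of 1 and 87% of changes of 2 on the log2 scale, with 12 false calls. Of the real genes 51.3% were called, so the simulation differed from these data in that share. Positions and exon lengths came from Gencode vM39 on GRCm39. Named were all 10 members, Braf, the 6 further family genes, and in each other list up to 2 called genes with the largest rise and 2 with the largest fall. All tested genes near Areg and some cell type markers were named besides, as were the genes said to be picked after their values were seen. The members and lists were chosen with earlier results of these data known. Alternatives were other pseudocounts, filters and scalings, no variance trend, the replicate number as a block, and leaving out each culture in turn. Values of the authors' own tests were not used.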

Additional observations from a re-analysis of the deposited data

How the results depend on the processing

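Of the 98 recomputed counts of calls, 92 stayed within 1.5 times the value reported. The 6 that moved further came from leaving out a culture, which gave 6 to 7 upregulated genes over all pathway lists and 4 to 6 among the trafficking and negative regulator genes. The members gave 4 to 6 upregulated and 1 downregulated under every alternative run, with 4 when a mean of at least 50 left Areg and Erbb3 untested. Areg, Ereg, Btc and Egfr kept their direction and their call under each alternative in which they were tested. Their log2FC ranged from 1.87 to 3.34, 2.06 to 2.40, 1.81 to 2.05 and -0.49 to -0.44. Where the mean filter applied, Areg passed it only through its KE values. The same-numbered KE and NT cultures had r of 0.0589 to 0.0664 between their deviations from the group means across genes, and each culture correlated best with its own number, which is a hint from the data only. With the replicate block 8046 genes were called in place of 7844. Hbegf passed with the replicate block (adjusted p = 0.030 from limma; 0.0047 to 0.28 over its alternatives), and 6 members were then upregulated. Direction turned in genes that were never called. Tgfa had a log2FC of 0.0726 with quantile normalization, and -0.0867 to 0.0598 when a culture was left out, above 0 without NT replicate 1 or KE replicate 2. Aqp4 had -0.0065 with quantile normalization, and -0.0051 to 0.0383 when a culture was left out, below 0 without NT replicate 2. Nrg2 had -0.0519 to 0.237 when a culture was left out, below 0 without KE replicate 3 or NT replicate 2. The cause was not tested. No scaling moved the median log2FC of all tested genes past 0.0288. At this depth Areg in NT rests on 5 reads and Epgn on 24 reads in all, so their ratios are wide. The alternatives for the 2 single lists and for genes other than the members were chosen after seeing the data.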
